A study of Sus scrofa with 22 samples.

Results

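The 6 matrix genes of the pig embryo described here are COL1A1, COL1A2 and COL3A1, which encode chains of fibrillar collagens, DCN and LUM, which encode small leucine-rich proteoglycans, and POSTN. They were chosen by name, as the members of a list of fibrillar collagens and proteoglycans, and all 6 were present among the 25749 genes for which the authors deposited group means and standard deviations. Earlier results of these data were known when they were chosen. POSTN encodes periostin, a matricellular protein that is neither a collagen nor a proteoglycan, and it is kept because the list holds it.

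A Smart-seq2 protocol, modified so that reverse transcription adds a cell barcode, counted the polyadenylated RNA of single cells in 20 libraries of pig embryos between embryonic days 0 and 14 (P1 to P20) and in 2 libraries of pgEpiSC. The pgEpiSC are pluripotent stem cell lines taken from E10 epiblast before gastrulation, labelled high and low, and the labels do not explain these words or say whether they are separate lines. The authors sorted the 1647 cells into 39 groups, 37 of them embryonic with 1458 cells and named by a stage or by a lineage and day, and Mesdoderm and Defi_Endoderm are spelled as in their tables. Library totals ran between 7415760 and 39405309 counts, the median over cells was 274531 counts, and the labels do not say how many embryos went into a library or whether libraries came from separate ones. No group carries a genetic change or a treatment.

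Type I collagen is assembled from the chains of COL1A1 and COL1A2, and type III collagen from that of COL3A1; they form the fibrils of loose connective tissue, skin, vessels and early mesenchyme. Decorin (DCN) and lumican (LUM) bind to the surface of these fibrils and control how they grow and pack. Periostin binds collagen and fibronectin and aids the crosslinking of fibrils. In vertebrate embryos such matrix is laid down chiefly by mesenchyme, which arises from mesoderm at and after gastrulation.

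In the RefSeq annotation of Sscrofa11.1, COL1A1 (ENSSSCG00000036135) spans 26379087 to 26397180 of chromosome 12, COL1A2 (ENSSSCG00000015326) spans 74174484 to 74210407 of chromosome 9, and COL3A1 (ENSSSCG00000016034) spans 93556914 to 93595678 of chromosome 15. DCN (ENSSSCG00000000915) and LUM (ENSSSCG00000000916) are neighbours on chromosome 5, at 91678601 to 91713925 and at 91748871 to 91756381, with 34945 bases and no annotated gene between them. POSTN (ENSSSCG00000009361) spans 13225183 to 13258973 of chromosome 11. The values below count whole genes, and exons or transcripts were not distinguished.

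One library stood apart in these genes. P13 held 17 cells of Mesdoderm_E14 and 22 of Ectoderm_E14 together with 23 cells of preTE_E5, 6 of the 4-cell group (4C) and 2 of the 2-cell group (2C). In P13 these early cells carried the 6 genes, whereas cells of the same groups in other libraries had few or no counts of most of them. COL3A1 was at 23.9 CPM (counts scaled to a total of 1000000, over the summed cells of a group in a library) in preTE_E5 of P13, against 0 in P14 and 0 in P2. It was at 40.3 CPM in 4C of P13, against 1.77 in P1, and at 19.4 CPM in 2C of P13, against 0.226 in P1. LUM was at 30.3 CPM in preTE_E5 of P13, against 0 in P14 and 0.23 in P2. COL1A2 in 2C (25.0 CPM in P13 against 21.2 in P1) and COL1A1 in 4C (13.2 against 10.3) were at like levels in both libraries.

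Within P13, the make-up of the early cells was compared with that of the mesoderm and ectoderm cells of the same library. DCN and LUM together made up 50.4% of the summed counts of the 6 genes in preTE_E5 (95% Wilson interval 46.5 to 54.4), 44.2% in 4C (39.1 to 49.6) and 42.9% in 2C (36.7 to 49.2). Their share was 40.9% in Mesdoderm_E14 of P13 (40.1 to 41.7) and 18.6% in Ectoderm_E14 (17.019 to 20.3). The intervals of 4C and 2C held the mesoderm share, that of preTE_E5 lay above it, and all 3 lay above the ectoderm share. COL1A2 and COL3A1 together made up 39.5%, 44.5% and 39.5% in preTE_E5, 4C and 2C, against 38.5% in Mesdoderm_E14 and 66.5% in Ectoderm_E14. COL1A1 lay below both lineages, at 8.81%, 7.67% and 7.56% against 15.8% and 12.2%. POSTN was at 1.31%, 3.54% and 10.1%, against 4.87% and 2.75%, with no shared direction. A mesoderm cell of P13 held on average 788 counts of the 6 genes, an ectoderm cell 101, a preTE_E5 cell 26.7, a 4C cell 56.5 and a 2C cell 119. The blood markers HBZ and GATA1, both measured of a list of 5, summed to 54.0 CPM in preTE_E5, 66.2 CPM in 4C and 53.4 CPM in 2C of P13, against 0 to 0.677 CPM in these groups elsewhere, and to 66.0 CPM in Mesdoderm_E14 and 48.0 CPM in Ectoderm_E14 of P13. All 96 cell barcodes recur in several libraries, as a common set would, and no doublet caller was run. Whether P13's early cells hold RNA of other cells was not tested. Each call of the main edgeR fits that uses P13 is given with and without it, for genes of lists as a count. Calls by DESeq2, without the filter on low counts or in the E13 and E14 libraries alone are given with P13 only.

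**Figure D1:**
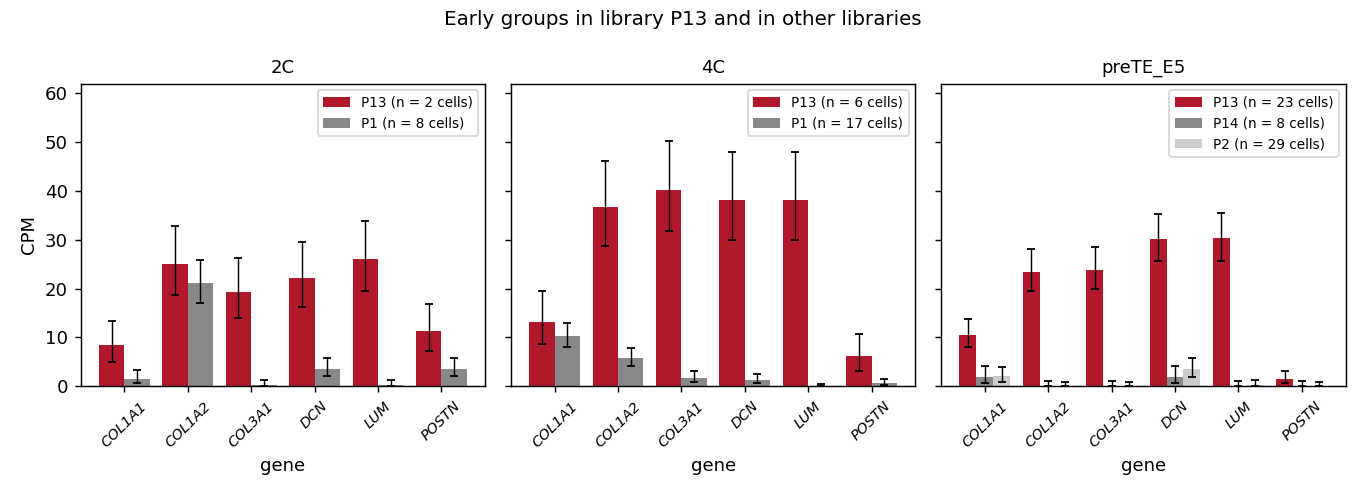
Level of the 6 genes (CPM, vertical axis) in the summed cells of 2C, 4C and preTE_E5, with P13 in red left of the other libraries in grey and 95% Poisson intervals for counting error as bars. COL3A1 reaches 19.4 to 40.3 CPM in P13 and at most 1.77 CPM elsewhere, while COL1A2 in 2C and COL1A1 in 4C are at like levels in both libraries.

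All 6 genes had their highest deposited mean in Mesdoderm_E14. On the authors' scale, the mean over cells of log2(CPM/10 + 1), COL1A1 stood at 6.21 ± 0.78 there, COL1A2 at 6.43 ± 0.76 and COL3A1 at 6.50 ± 0.49 (SD over 25 cells from 3 libraries). DCN stood at 6.45 ± 1.22, LUM at 6.40 ± 0.84 and POSTN at 4.04 ± 1.98 in the same cells. COL1A1, DCN and LUM came next in Mesdoderm_E13, at 3.56 ± 1.56, 4.03 ± 1.52 and 4.03 ± 1.91 (SD over 20 cells from 2 libraries). For the others the second place went to another E14 group: TE_E14, trophectoderm, for COL1A2 (3.67 ± 0.78, 11 cells) and POSTN (0.96 ± 0.78), and Defi_Endoderm_E14 for COL3A1 (4.16 ± 0.83, 15 cells).

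Most other groups were near 0. A mean under 1 was found in 32 of the 39 groups for COL1A1, in 31 for COL1A2, in 34 each for COL3A1, DCN and LUM, and in 38 for POSTN. LUM was listed at 0 in 14 groups and COL3A1 in 9. When groups were put in order of their means, the gap between Mesdoderm_E14 and the next group exceeded the larger SD of the pair for each of the 6 genes, and at most 1 further gap of the 38 did so for any gene. The further gap lay just below Ectoderm_E14 for COL1A1 and LUM, below Defi_Endoderm_E14 for COL1A2 and below Mesdoderm_E13 for COL3A1 and DCN. POSTN had no further gap. Apart from these gaps, neighbours in the order were not separated beyond the spread of their cells. Pooled CPM put Mesdoderm_E14 first for every gene as well, and ranked the groups nearly alike (Spearman's rho 0.95 to 0.99 over the 39 groups).

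**Figure D2:**
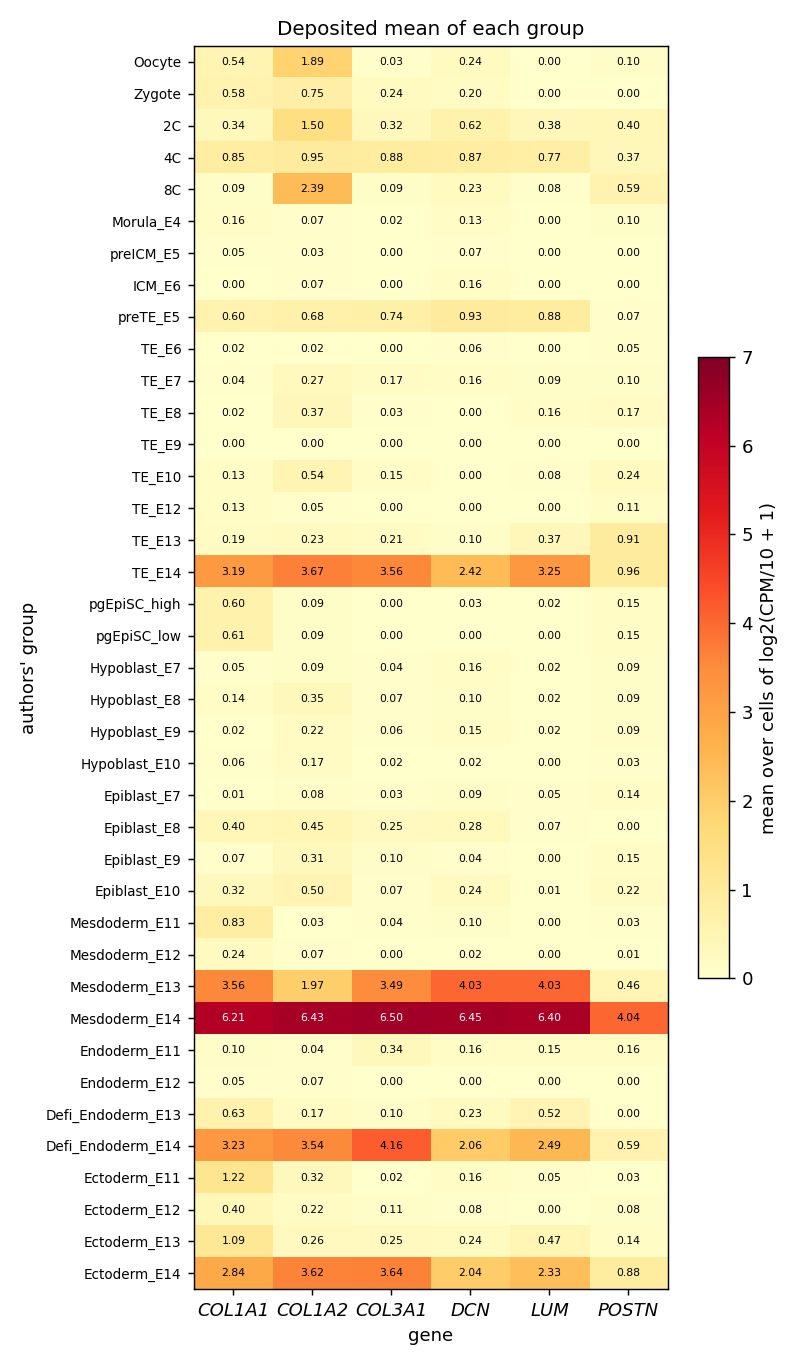
Deposited mean over cells of log2(CPM/10 + 1) of each of the 6 genes (columns) in each of the authors' 39 groups (one line per group), with darker colour for a higher mean. Mesdoderm_E14 holds the highest mean of every gene, 4.04 to 6.50, and the other E14 groups and Mesdoderm_E13 are the only further groups above 2.5.

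Mesoderm was the lineage with the largest levels, and its cells were followed over 4 days. The labelled cell type was checked first: MESP1, a factor of nascent mesoderm, was at 261 CPM in Mesdoderm_E11 and 274 CPM in Mesdoderm_E12. HAND1, a factor of extraembryonic and lateral mesoderm, was at 229.8 CPM and 252 CPM there and at 377 to 606 CPM in the E13 and E14 cells. TBXT, MIXL1 and GSC, which mark the streak, were at 0 in every Mesdoderm_E14 library. In Mesdoderm_E11 and E12 TBXT was at 2.49 and 1.89 CPM and GSC at 71.1 and 20.3 CPM. The 7 streak and mesoderm markers summed to 505 to 610 CPM in Mesdoderm_E14 and 607 to 721 CPM in TE_E14. The 6 trophectoderm markers summed to 2443 to 3100 and 1744 to 2122 CPM there. These 2 lists thus did not set E14 mesoderm apart from trophectoderm. The 4 measured mesenchyme markers summed to 752 to 1277 CPM in Mesdoderm_E14 and 158 to 395 CPM in TE_E14.

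The 3 collagen genes were low or absent in early mesoderm and abundant by E14. COL1A1 was at 14.4 CPM in Mesdoderm_E11 (P6) and 3.31 in Mesdoderm_E12 (P10), then at 151 and 177 in Mesdoderm_E13 (P18, P19) and at 575, 1085 and 690.2 in Mesdoderm_E14 (P11, P12, P13). COL1A2 was at 0.325 and 0.473 CPM at E11 and E12, at 23.9 and 90.5 at E13, and at 669, 1159 and 820.2 at E14 in the same libraries. COL3A1 was at 0.325 and 0 CPM at E11 and E12, at 121 and 127 at E13, and at 665, 935 and 863 at E14. The days did not overlap for any of these genes between E12, E13 and E14, and only COL1A1 had a level of several CPM before E13.

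The proteoglycan genes had their highest levels on the same days. DCN was at 1.19 and 0.236 CPM at E11 and E12, at 97.2 and 358 at E13 and at 779, 1196 and 947 at E14. LUM had no count in the 53 cells of E11 and E12, and was at 204 and 311 CPM at E13 and at 709.9, 1069.8 and 843 at E14. POSTN was at 0.325 and 0.236 CPM at E11 and E12, at 2.61 and 9.40 at E13, and at 289.8, 334 and 213 at E14. Whether its timing differs from that of the other genes was not tested.

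Set together, late mesoderm (E13 and E14) was higher than early mesoderm (E11 and E12) for all 6 genes, against a background of 0.525% of the 23045 genes tested that passed as higher. COL1A1 rose by 5.70 ± 1.07 (log2, SE; edgeR adjusted p = 0.00172), COL1A2 by 9.14 ± 1.92 (adjusted p = 0.00585) and COL3A1 by 12.04 ± 2.14 (adjusted p = 0.000983). COL3A1 had no count in Mesdoderm_E12, so its fitted change rests in part on a group at 0. DCN rose by 9.76 ± 1.61 (edgeR adjusted p = 0.000473) and POSTN by 7.05 ± 1.56 (adjusted p = 0.0107). LUM also passed (edgeR adjusted p = 0.0012), and its fitted change rests on a group at 0. Its pooled level of 455 CPM in late mesoderm was 2040.3-fold the floor of 3 counts over the early cells, 0.223 CPM. The 95% counting interval of its pooled late-over-early ratio began at 1659. Counting alone left the folds of rare early genes wide: COL3A1 had 5653 counts in late and 3 in early mesoderm, a pooled ratio of 1642 (95% counting interval 562 to 7966), while COL1A1 had 5605 and 147, a ratio of 33.2 (28.2 to 39.4).

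These calls leaned on the 2 early libraries, each the only one of its day. Without P6, E12 alone stood for early mesoderm and 3 of 6 genes passed (COL1A1, COL3A1 and DCN); without P10, E11 alone did so and 1 passed, DCN (edgeR adjusted p = 0.0485). Without P12, 5 passed, and POSTN had an adjusted p of 0.0665. Without P13 all 6 passed. The log2 changes of the 5 genes with early counts stayed above 4.59 in each of these fits, though without P6 COL3A1 had no early count. Day and library cannot be told apart here, since no library held both early and late mesoderm. Markers moved with the change: the 4 measured mesenchyme markers summed to 597 to 1277 CPM in late and 231 to 458 CPM in early mesoderm, and the 7 streak and mesoderm markers to 422 to 639 CPM and 743 to 753 CPM. Their part in the result was not tested.

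**Figure D3:**
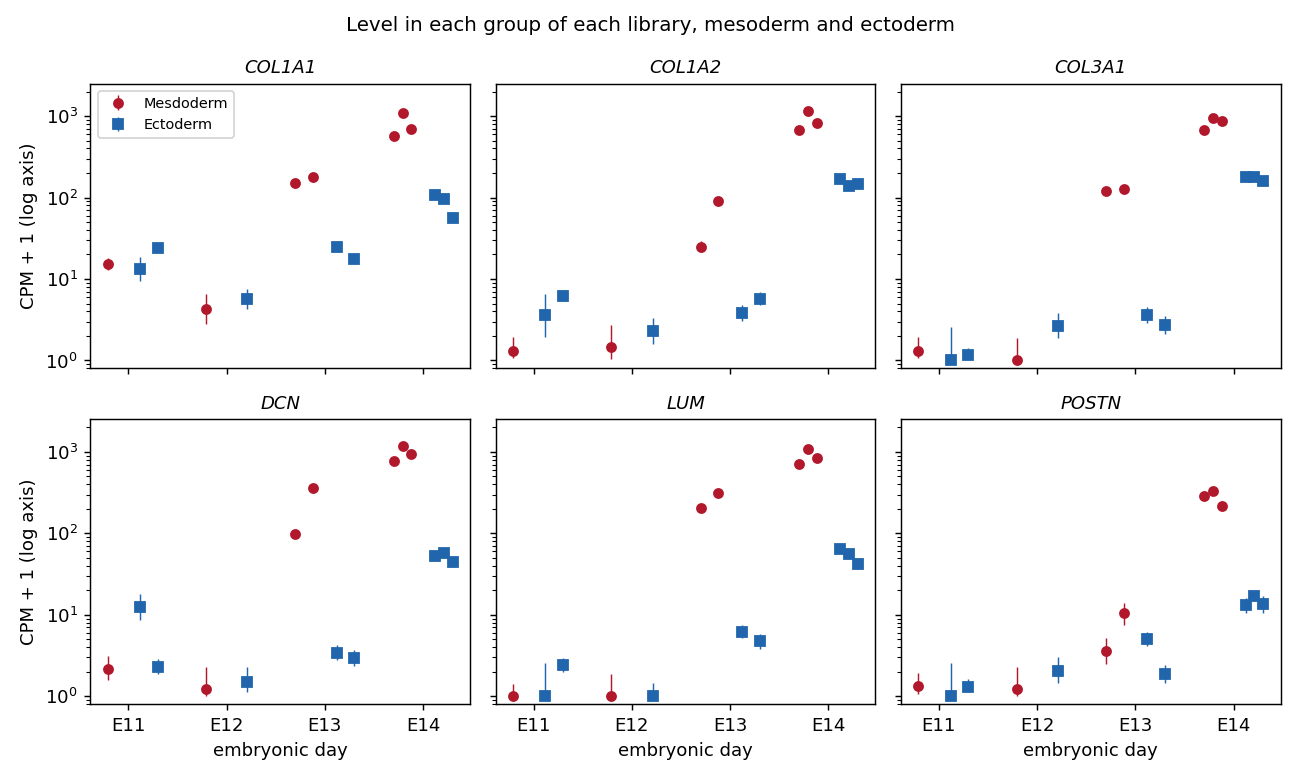
CPM + 1 on a log axis for each gene in the summed cells of a group in a library, by embryonic day, with mesoderm (red circles) left of ectoderm (blue squares) and 95% Poisson intervals as bars. No point exceeds 23.0 CPM at E11 and E12, and at E14 every mesoderm point lies above every ectoderm point.

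Between E13 and E14 the mesoderm values were higher at E14 for all 6 genes, but none passed the test. The log2 difference was 2.47 ± 0.93 for COL1A1, 4.08 ± 1.45 for COL1A2, 2.90 ± 1.25 for COL3A1, 2.20 ± 1.10 for DCN, 1.91 ± 1.33 for LUM and 5.49 ± 1.40 for POSTN (SE; 2 sums each, of P12 and P13 against P18 and P19). The smallest edgeR adjusted p was 0.243, that of POSTN. No gene of the genome passed (0%), with 1815 genes and 4 of the 6 at an unadjusted p under 0.05. DESeq2 called 1 of the 6, POSTN, and edgeR without a filter on low counts called 3. No member passed when P12, P13, P18 or P19 was left out. The E13 and E14 cells came from wholly different libraries.

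Single cells showed the same ordering. All 6 genes were detected in 23 of 25 cells of Mesdoderm_E14, in 5 of 20 of Mesdoderm_E13 and in no cell of the earlier mesoderm. The 6 genes together had 172 to 1724 counts per cell at E14 (median 934) and 57 to 717 at E13 (median 430.5), although the E14 cells were shallower (median 171600 counts per cell against 465380). At E12 the range was 0 to 5 counts with a median of 0, and 12 of 20 cells had none. COL3A1 varied least among the 17 E14 cells of P13, with 52 to 215 counts and a median of 165, and POSTN most, with 0 to 175 and a median of 25. After each cell was thinned to 50000 counts, POSTN was expected in 92.9%, 95.3% and 82.6% of E14 mesoderm cells (P11, P12, P13; 1 cell of P13 too shallow), against 6.92% and 30.7% of E13 cells (P18, P19). Unthinned, the shares were 100%, 100% and 88.2% at E14 against 10% and 50% at E13. In preTE_E5 cells of P13, whose other libraries had no POSTN count, the thinned share was 8.37% and the unthinned share 30.4%, at a median of 215190 counts per cell.

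Mesoderm was then set against ectoderm within libraries, which holds the library constant. Of the 6 genes, 5 were higher in mesoderm, against a background of 2.11% of the 12555 genes tested that passed as higher. LUM rose by 5.13 ± 0.35 (log2, SE; edgeR adjusted p = 0.000679), DCN by 4.47 ± 1.08 (adjusted p = 0.0463), COL3A1 by 3.65 ± 0.75 (adjusted p = 0.0266), COL1A2 by 2.88 ± 0.55 (adjusted p = 0.0203) and COL1A1 by 2.62 ± 0.53 (adjusted p = 0.0251). POSTN differed by 2.77 ± 0.86 and did not pass (edgeR adjusted p = 0.104). The fit had the libraries P6, P10, P18, P19, P12 and P13 as blocks. LUM had no count in either lineage of P6 or P10, so its change rests on P18, P19, P12 and P13.

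In the E13 and E14 libraries mesoderm was higher for every gene and library except POSTN in P18, at 2.61 CPM in mesoderm and 4.01 in ectoderm. At E13, COL3A1 was at 121 CPM in mesoderm and 2.63 in ectoderm of P18, and at 127 and 1.71 in P19, ratios of 45.9 and 74.5. DCN was at 97.2 and 358 CPM in mesoderm of P18 and P19, against 2.45 and 1.95 in ectoderm of the same libraries. At E14, where ectoderm held the collagens too, the COL3A1 ratio was 3.70 in P11, 5.33 in P12 and 5.51 in P13. For LUM the E14 ratios were 11.12, 19.4 and 20.5 and for DCN 15.2, 21.5 and 22.0, so that the E14 ratios of both proteoglycan genes were above those of COL3A1 and COL1A2 in each of the 3 libraries. In the earlier libraries the direction was not shared: COL1A1 was at 14.4 CPM in mesoderm and 12.4 in ectoderm of P6, and at 3.31 and 4.71 in P10, while DCN was at 1.19 and 11.6 in P6. Over the 7 libraries that held both lineages, mesoderm was higher in 6 for COL1A1 and COL3A1 and in 5 for each of the others. For LUM the remaining libraries, P6 and P10, had no count in either lineage.

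Which genes passed depended on single libraries and on the block. Leaving out P12, P13, P18 or P19 left 1 of 6 genes, LUM, and without the library block none passed. DESeq2 called 3, COL1A1, DCN and LUM. In the E13 and E14 libraries alone, an alternative chosen after seeing the data, all 6 passed, with log2 changes of 3.27 to 5.37. The 4 mesenchyme markers summed to 231 to 1277 CPM in the mesoderm groups and 175 to 477 CPM in the ectoderm groups, and HAND1 was at 229.8 to 606 CPM and 16.7 to 231 CPM; their part in the result was not tested.

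Ectoderm at E14 carried the 6 genes in all 3 of its libraries, at higher levels than ectoderm at E13. COL3A1 was at 180.0, 175 and 157 CPM in Ectoderm_E14 (P11, P12, P13), against 2.63 and 1.71 in Ectoderm_E13 (P18, P19). COL1A2 was at 167, 139 and 144 CPM at E14, against 2.81 and 4.76 at E13. DCN was at 51.4, 55.6 and 43.1 CPM at E14, against 2.45 and 1.95 at E13, and LUM at 63.9, 55.2 and 41.0, against 5.20 and 3.72. COL1A1 was at 106, 95.8 and 55.1 CPM at E14, against 23.9 and 16.7 at E13, where it was counted in 75.3% of cells. POSTN was at 12.1, 16.1 and 12.5 CPM at E14, against 4.01 and 0.854 at E13. The days did not overlap for any of the 6 genes, and COL1A1 and POSTN had the narrowest gaps. In P13, an Ectoderm_E14 cell held on average 9.59 counts of DCN and 9.14 of LUM. A 4C cell of P13 held 12.5 of each, and a preTE_E5 cell 6.70 and 6.74. COL1A1, COL1A2, COL3A1 and POSTN were higher per cell in Ectoderm_E14 than in these 4C and preTE_E5 cells. P11 and P12 also held Mesdoderm_E14, and no cells of these early groups. Summed, the 6 genes were at 581 CPM in Ectoderm_E14, 621 in Defi_Endoderm_E14 and 827 in TE_E14 (1 cell) of P11. The same groups of P12 were at 537, 385 (2 cells) and 540 CPM. How much of the counts of the 6 genes in Ectoderm_E14 of P11, P12 or P13 is background was not tested.

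One of the 6 passed the test of ectoderm E14 against E13, COL3A1, with a log2 change of 6.23 ± 1.45 (SE; edgeR adjusted p = 0.0386), against a background of 0.0608% of all genes that passed as higher. The others differed by 2.03 ± 0.88 (COL1A1), 5.24 ± 1.51 (COL1A2), 4.44 ± 1.20 (DCN), 3.52 ± 1.38 (LUM) and 2.43 ± 1.17 (POSTN) on the log2 scale, with all 6 at an unadjusted p under 0.05. The COL3A1 call was lost without P11, P12, P18 or P19 and under the size factors of DESeq2, and 4 genes passed without the filter on low counts. The call held without P13. By DESeq2 1 gene passed, DCN. The 2 days share no library. Several marker lists moved with the day. The 5 amnion markers summed to 147 to 224 CPM in Ectoderm_E14 and 15.3 to 24.7 CPM in Ectoderm_E13, the 3 body position markers to 172 to 195 CPM and 1.28 to 4.96 CPM, and the 4 measured heart muscle markers to 196 to 487 CPM and 22.9 to 23.0 CPM. TNNT2, a heart muscle gene, was at 49.2 to 136 CPM in Ectoderm_E14 and 0 to 0.0610 CPM in Ectoderm_E13, and the 4 mesenchyme markers summed to 352 to 477 CPM and 175 to 177 CPM. In Ectoderm_E11 and Ectoderm_E12 the heart muscle markers summed to 121 to 200 and 46.7 CPM, and the mesenchyme markers to 292 to 347 and 210 CPM. There the amnion markers summed to 7.93 to 13.7 and 7.39 CPM, and the body position markers to 1.71 to 6.09 and 0.892 CPM. Of the neural markers, PAX6 was at 9.49 to 36.6 CPM in Ectoderm_E14 and 0.299 to 14.7 CPM in Ectoderm_E13, and ZIC1 was at 0 in every Ectoderm_E14 library. The part of these cells in the result was not tested.

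Detection of LUM in ectoderm at E13 was frequent but shallow. LUM was counted in 33 of 41 cells of P18 (80.5%) and 29 of 44 of P19 (65.9%), with a median of 2 and 1 counts per cell. In 8C cells of P19 it was counted in 11 of 15 (73.3%), and in 8C cells of P20 in 3 of 65 (4.62%). Thinned to 50000 counts, the shares were 23.7% and 16.98% in Ectoderm_E13, 12.6% in 8C of P19 and 0.971% in 8C of P20, at median cell totals of 442990, 362370, 720620 and 413500. At these unlike depths, and with no 8C cells in P18, how much of the detection in Ectoderm_E13 is background was not tested.

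Late against early ectoderm (E13 and E14 against E11 and E12) gave values above 0 for all 6 genes and no call in edgeR or DESeq2, against 0.239% of genes called in either direction. Log2 differences ran between 2.08 ± 0.78 (COL1A1) and 6.72 ± 1.92 (LUM). LUM had no count in Ectoderm_E12, so its fitted change rests in part on a group at 0. The smallest edgeR adjusted p was 0.101 (COL3A1), and all 6 genes were at an unadjusted p under 0.05. Without P13, 2 genes passed (COL3A1 and LUM), and without the filter on low counts 5 did. The difference between lineages in the late-against-early change was 3.62 ± 1.13 for COL1A1, 5.87 ± 2.01 for COL1A2, 6.93 ± 2.66 for COL3A1, 7.24 ± 1.85 for DCN and 3.65 ± 1.69 for POSTN (log2, mesoderm minus ectoderm). None of the 6 passed in edgeR, against 0.0174% of genes called; in DESeq2 2 passed (COL3A1 and DCN), and 5 had an unadjusted p under 0.05 in edgeR. No error could be given for LUM, which had no count in early mesoderm. The value of COL3A1 rests in part on Mesdoderm_E12, where it had no count.

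**Figure D4:**
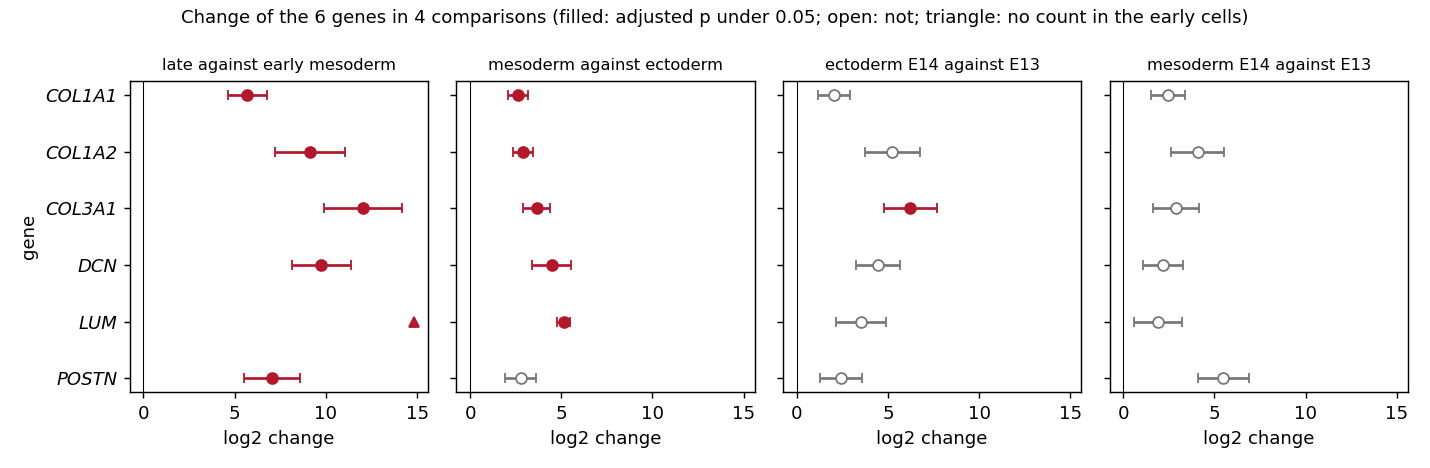
Log2 change with its standard error (horizontal bars) of the 6 genes in 4 comparisons, filled where the edgeR adjusted p was under 0.05. All 6 points are filled for late against early mesoderm and 5 for mesoderm against ectoderm. For ectoderm E14 against E13 1 is filled, and for mesoderm E14 against E13 none. The triangle is LUM, whose fitted change rests on early cells with no count. In the same comparison COL3A1 rests in part on Mesdoderm_E12, where it had no count.

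The balance of the 6 genes differed between the lineages of E14 in the same way in each library. In Mesdoderm_E14, DCN and LUM made up 40.4%, 39.2% and 40.9% of the summed counts of the 6 genes (P11, P12, P13), against 19.8%, 20.6% and 18.6% in Ectoderm_E14. COL1A2 and COL3A1 made up 36.2%, 36.2% and 38.5% in Mesdoderm_E14, against 59.7%, 58.6% and 66.5% in Ectoderm_E14. POSTN made up 7.86%, 5.77% and 4.87% in mesoderm and 2.08%, 3.00% and 2.75% in ectoderm. The lineages did not overlap in any of these shares. At E13 the mesoderm leaned further to the proteoglycans, with DCN and LUM at 50.3% (P18) and 62.3% (P19) of the 6 genes.

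The other E14 groups also held the 6 genes. In Defi_Endoderm_E14, COL3A1 was at 222 CPM in P11 (13 cells) and 117 in P12 (2 cells), against 1.80 and 0 in Defi_Endoderm_E13 (P18, P19). DCN and LUM made up 18.95% and 31.3% of the 6 genes there (P11, P12). In TE_E14, COL1A2 was at 278 CPM in the single cell of P11 and 143 in the 10 cells of P12, and LUM at 117 and 115 CPM. The endoderm groups of E12 to E14 gave no call against ectoderm within libraries: in edgeR 0 of 4 members tested passed, none at an unadjusted p under 0.05 and none in DESeq2, against 1.31% of genes called, with a log2 difference of -0.91 ± 0.61 for COL1A1 and -0.69 ± 0.60 for COL1A2.

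**Figure D5:**
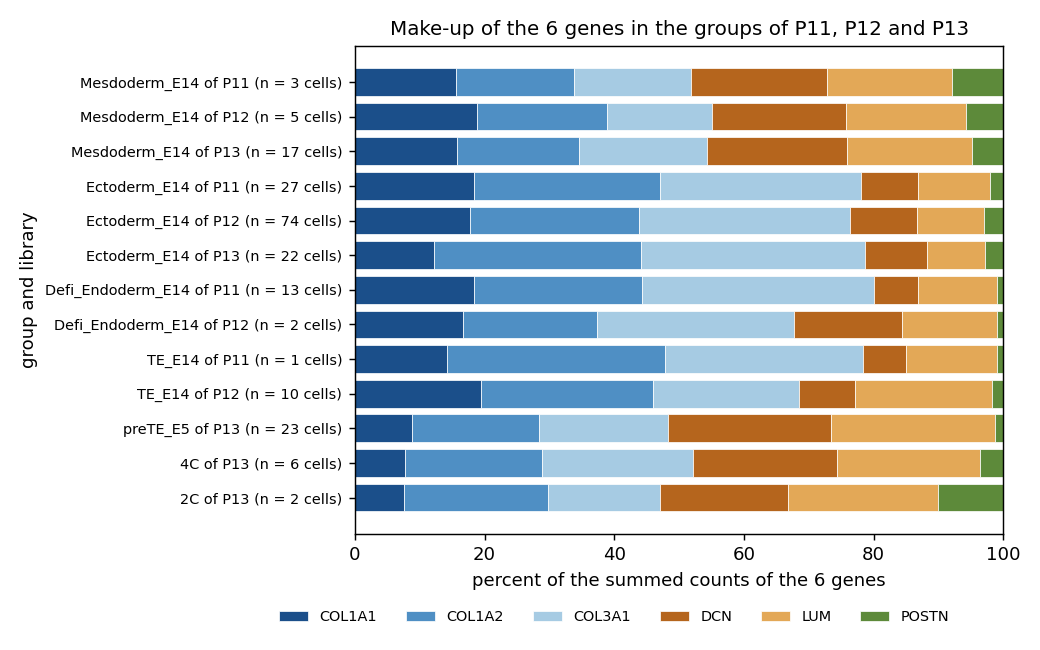
Percent of the summed counts of the 6 genes taken by each gene (horizontal axis) in each group of P11, P12 and P13, with the number of cells. Mesoderm bars hold about 40% of DCN and LUM in the 3 libraries (40.4, 39.2 and 40.9), ectoderm bars 18.6 to 20.6%, and the preTE_E5, 4C and 2C bars of P13 42.9 to 50.4%.

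COL1A2 was also present in cleavage stages. It was at 25.4 CPM in oocytes and 7.73 in zygotes (P1), at 21.2 and 25.0 in 2C (P1, P13), at 5.75 and 36.7 in 4C (P1, P13), at 53.9 and 51.7 in 8C (P19, P20) and at 1.01 and 0 in morulae of E4 (P1, P2). In 8C it was counted in 15 of 15 cells of P19 and in 63 of 65 cells of P20, and the deposited mean of 2.39 ± 0.73 (SD over 80 cells) was the highest of any group before E14. POSTN was at 5.14 and 7.48 CPM in 8C (P19, P20) and at 2.03 and 0 in Morula_E4 (P1, P2), a difference that did not pass. COL1A2 fell in Morula_E4 against 8C, by 6.42 ± 1.85 on the log2 scale (edgeR adjusted p = 0.00659), against a background of 13.6% of genes that passed as lower. Without P1, whose morulae were the only ones with a count, the adjusted p was 0.0561, and with at least 10 cells per sum it was 0.0553. COL1A1 fell in 8C against 4C by 2.99 ± 1.01 (edgeR adjusted p = 0.0457), against a background of 7.16%, and that call was lost when any of the libraries P1, P13, P19 or P20 was left out, with at least 10 cells per sum and without mitochondrial genes.

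In the trophectoderm branch, 3 members fell in TE_E6 against preTE_E5, against a background of 1.77% of genes that passed as lower, and these calls rested on P13. COL1A1 was at 0 and 0.214 CPM in TE_E6 (P14, P15), against 10.6, 1.86 and 2.07 in preTE_E5 (P13, P14, P2), a log2 change of -6.04 ± 1.52 (edgeR adjusted p = 0.0113). COL3A1 and LUM had no count in TE_E6, against 122 and 155 counts in the preTE_E5 cells of P13 and 0 and 1 count in those of P14 and P2 together, and passed with edgeR adjusted p = 0.0198 and 0.028. Without P13 no member passed, and COL1A1 had an adjusted p of 0.106. Without P14 none passed either, and without P15 COL1A1 alone did. The stage steps tested beside mesoderm and ectoderm of E13 and E14 were 13, and they gave 5 calls of members in all.

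In trophectoderm before E14, counts of POSTN and COL1A2 were seen in some libraries. POSTN was at 34.5, 20.6, 12.5 and 12.996 CPM in TE_E13 (P9, P10, P18, P19), with a deposited mean of 0.91 ± 1.13 (SD over 34 cells), behind those of Mesdoderm_E14 and TE_E14 alone. The step to TE_E13 could not be tested with 1 library in TE_E12. In TE_E14 POSTN was at 7.32 CPM in the single cell of P11 (2 counts) and 9.30 in P12, lower than in TE_E13, but its deposited mean was 0.96 and it was counted in 81.8% of cells, against 0.91 and 47.1% in TE_E13, so that the direction depended on the measure. COL1A2 was at 44.4 CPM in TE_E10 of P5 and 0 in P6, and at 8.82, 7.62 and 0 CPM in TE_E8 (P4, P5, P3). LUM was at 5.36 and 7.64 CPM in TE_E13 of P18 and P19 and at 0 in P9 and P10. P18 and P19 also held Mesdoderm_E13, with LUM at 204 and 311 CPM. P9 held no mesoderm, and LUM had no count in the mesoderm of P10. How much of the LUM in TE_E13 is background was not tested.

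In epiblast, hypoblast and pgEpiSC the members were at low levels. COL1A2 was at 8.49 and 5.52 CPM in Epiblast_E10 (P15, P16), and at 11.3, 5.05 and 0 in Hypoblast_E8 (P5, P4, P3). DCN was at 5.91 and 3.67 CPM in Epiblast_E10 and POSTN at 1.54 and 3.91. COL1A1 was at 9.24 CPM in pgEpiSC_high (95% Poisson interval 7.96 to 10.7) and 9.21 CPM in pgEpiSC_low (7.66 to 10.98), against 3.32 and 4.67 in Epiblast_E10 (P15, P16). COL3A1 had no count in either pgEpiSC library, and was at 0.769 and 0.443 CPM in Epiblast_E10. By edgeR, 0 of the 5 members tested passed in pgEpiSC against Epiblast_E10, against 6.52% of genes called; COL3A1 and DCN had an unadjusted p under 0.05, and DESeq2 gave no call. The COL1A1 difference was 1.44 ± 1.02 on the log2 scale and that of DCN -4.59 ± 1.58 (edgeR adjusted p = 0.51 and 0.12). With 1 library each, pgEpiSC_high and pgEpiSC_low were not tested; the largest log2 ratio of high over low, with a pseudocount of 1 CPM, was -0.77 for COL1A2, at 0.849 (0.495 to 1.36) and 2.15 (1.44 to 3.09) CPM. In hypoblast against epiblast 0 of the 2 members tested passed, none at an unadjusted p under 0.05 and none in DESeq2, against 22.5% of genes called.

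COL1A1 was present in ectoderm from E11 on. In Ectoderm_E11 it was at 12.4 and 23.0 CPM (P6, P7), and in Ectoderm_E12 at 4.71 (P10). COL1A2 was counted there too, at 2.57 and 5.24 CPM at E11 and 1.27 at E12. The change of COL1A1 in Ectoderm_E11 against Epiblast_E10 was 2.47 ± 0.95 (log2, SE) and did not pass (edgeR adjusted p = 0.416).

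Genes that make, modify or bind collagen were counted by lists. In late against early mesoderm, where 0.525% of all genes passed as higher, 1 of 13 tested other fibrillar collagens and leucine-rich proteoglycans rose, COL5A2 (4.89 ± 1.23), a chain of type V collagen that joins type I fibrils. Of 28 genes of collagen folding, modification and crosslinking, 2 rose: LOX, the oxidase that starts crosslinks (5.62 ± 1.33), and PLOD2, a lysyl hydroxylase (3.00 ± 0.70). CCN1, a matricellular protein (2.82 ± 0.72), rose among 19 fibril-associated and matricellular genes, and SNAI2, a repressor of epithelial genes (6.81 ± 1.69), among 19 of the TGF-beta pathway and mesenchymal factors. None of 14 collagen receptor and turnover genes passed in either direction, and no gene of the 5 lists fell. The lists' median log2 changes were 0.49 to 1.28, against 0 over all genes tested. All 5 calls were lost without P6, P10 or P12, only SNAI2 was kept without P19, and 4 were kept without P13.

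In mesoderm against ectoderm, 9 genes of these lists passed, where 2.11% of all genes passed as higher and 1.51% as lower. LOXL2 (2.55 ± 0.24) and P4HA2 (1.53 ± 0.28), which crosslink and hydroxylate collagen, rose among 23 tested. COL12A1 (2.24 ± 0.35), which coats fibrils, and FN1 (1.24 ± 0.27) and SPARC (1.24 ± 0.24), which bind them, rose among 15. Of 9 other fibrillar collagens and proteoglycans, COL5A1 rose (1.72 ± 0.23) and COL2A1, the cartilage and notochord collagen, fell by 1.89 ± 0.32. FOXF1 (2.74 ± 0.48) and SNAI2 (2.92 ± 0.64) rose among 15 mesenchymal factors, and none of 11 receptor and turnover genes passed. The list medians ran between 0.37 and 0.93, against -0.03 over all genes. Without the library block none of the 9 calls was kept, without P12, P18 or P19 4 were kept in each case, and without P13 7 were kept (FN1 and SPARC were lost). COL12A1, COL5A1 and LOXL2 were kept with any single library left out. In ectoderm E14 against E13 no gene of the 5 lists passed in edgeR.

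Across the 39 deposited means, the genes most like each member were largely other members and mesenchymal genes. DCN and LUM were each other's closest gene among 13943 (Pearson's r 0.99). TGFBI, a secreted matrix protein induced by TGF-beta, was closest to COL1A1 (0.97), ITGA8, an integrin chain of mesenchyme, to COL1A2 (0.93), and LUM to COL3A1 (0.97). COL5A2, ACTA2 and SNAI2 came within the first 5 for several members. POSTN stood apart: its first 5 were FIBIN, COLEC10, IFI44, SMOC2 and IFI44L (0.91 to 0.95), and none was a member. Among the 6, r ran between 0.81 (COL3A1 with POSTN) and 0.99. The groups share libraries and depth, so these are descriptions, and by Spearman's rho only 0 to 2 of each first 5 were the same.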

How the data were processed

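Of the deposited tables used, one holds raw counts of the authors for 29214 pig genes and 92 spike-ins in 1647 cells; spike-ins (1.80% of counts) were left out. The others, deposited for the authors' 39 groups, give a mean and a standard deviation over cells, recorded as log2 values for the pgEpiSC columns and, where several libraries share a column, as an other value on the same scale, log2(CPM/10 + 1). Per the submitters' processing notes, STAR 2.7.1a, featureCounts 1.6.4, UMI-tools and Sscrofa11.1 were used, with no role or order given, and filters on cells are not given in the sources used here.

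Cell names give the library and not the group. Least squares of the deposited means on the cells' log2 values placed every cell in exactly 1 group. Rebuilt means lay within 0.001 of the deposited ones for 93.0% of genes or more in every group, and rebuilt standard deviations for 99.8% or more, the members within 0.000798 and 0.000631. The plan made tests conditional on such a placement.

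Counts of cells sharing a group and a library were added up, with at least 5 cells per sum (2 for Zygote, 2C and 4C, 1 for Oocyte), giving 65 embryonic sums. Tests used edgeR 4.0.16 in R 4.3.3 (filterByExpr, TMM, common and trended dispersion, quasi-likelihood F-test), adjusted by Benjamini-Hochberg over all genes tested, with a threshold of 0.05; the SE is the change divided by the square root of F. In comparisons of lineages the library was a block, because both lineages of a library share its preparation. The p-values measure the spread between sums, which may be technical. Counts of 22003 genes were simulated for ectoderm E14 against E13. The test recovered 99 of 100 genes changed 32-fold and 25 of 100 changed 4-fold, with 4 false calls. All genes were simulated with the same dispersion, and only genes above a set level in Ectoderm_E13 were changed. Recovery at the spread of the real counts, and for genes of low level, was therefore not measured. Intervals (exact Poisson, Clopper-Pearson or Wilson, 95%) and the floor of 3 counts cover counting error alone. Levels are not compared between genes. Python 3.11.15 with numpy 2.4.6, pandas 2.3.3, scipy 1.17.1 and matplotlib 3.10.9 did the rest.

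The members, the 5 lists and the marker lists were chosen with earlier results of these data known. The members are always named, list genes where they pass, and the 5 most similar genes per member by Pearson's r among genes with a deposited mean of at least 1 in some group. Alternatives were DESeq2 1.42.0, its size factors in edgeR, no filter on low counts, at least 10 cells per sum, mitochondrial genes left out, each library left out, no block, other pseudocounts and other measures of level and likeness.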

Additional observations from a re-analysis of the deposited data

How the results depend on the processing

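The number of members called was recomputed under each alternative. Late against early mesoderm kept 6 of 6 except without P6 (3), P10 (1) or P12 (5), so that its count over left-out libraries ran between 1 and 6. Mesoderm against ectoderm (5 calls) gave 3 with DESeq2, 1 with at least 10 cells per sum, 0 with no replicate block and 1 to 6 with a library left out. Ectoderm E14 against E13 (1 call) gave 0 with DESeq2 size factors, 4 without a filter and 0 to 1 with a library left out. Mesoderm E14 against E13 (0 calls) gave 1 with DESeq2 and 3 without a filter. Late against early ectoderm (0 calls) gave 5 without a filter and 0 to 2 with a library left out, and the lineage difference of that change (0 calls) 2 with DESeq2 and 4 without a filter. The 13 other stage steps (5 calls) gave 9 with DESeq2, 19 without a filter, 3 with at least 10 cells and 1 to 5 with a library left out. The pgEpiSC comparison (0 calls) gave 1 without a filter. The causes were not tested.

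Directions of called members did not turn in any of these fits, with COL3A1 in TE_E6 against preTE_E5 at 0 without P13. Uncalled values near 0 did: LUM in endoderm against ectoderm (-0.0807 without P18, up to 0.33 with another library left out), COL1A2 and DCN in hypoblast against epiblast with no replicate block (0.25 and -0.15) and with a library left out (-0.45 to 0.26 and -0.50 to 0.89), and POSTN in pgEpiSC against Epiblast_E10 (-0.73 without P15, 0.68 without P16, 0.0085 without pgEpiSC_high).

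A block for E14 against E13 could not be fitted in either lineage, since the days share no library, and the endoderm comparison with at least 10 cells per sum had under 3 libraries. Depth limits the rare members: 3 counts amount to 0.223 CPM over the 53 early mesoderm cells, and 1 library stands for each early mesoderm day.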
